A study of Mus musculus with 16 samples.

Results

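The thrombospondins are a family of 5 secreted glycoproteins, and all 5 of their genes (Thbs1, Thbs2, Thbs3, Thbs4 and Comp, which encodes thrombospondin 5) were taken by symbol from the 56748 genes of the deposited count table. Thbs1, Thbs2, Thbs3 and Thbs4 had reads in each of the 16 libraries, and Comp in 15 of them. RNA was sequenced from longitudinal muscle and myenteric plexus strips (LMMP), dissected from the proximal and the distal colon of mice that lack endothelin receptor B (Ednrb -/-, called HSCR as a model of Hirschsprung disease) and of WT (Ednrb +/+) littermates. The groups were WT proximal, HSCR proximal, WT distal and HSCR distal, with 4 libraries each. All mice came from the Ednrb tm1Ywa line, of mixed C57BL6/J-129Sv strain, were aged 2 to 4 weeks and of both sexes, and no treatment is named for them. The allele is disrupted in every cell of the body. The proximal segment of HSCR mice was the ganglionic colon, marked off by its distention and checked by staining for the neuron marker Tuj1. The extent of the segment therefore followed the disease in each mouse. In LMMP, fewer cells of a type and less RNA per cell cannot be told apart.

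Thrombospondins are matricellular proteins, which sit in the extracellular matrix and tie collagens, growth factors, proteases and cell receptors together rather than bearing load themselves. Thbs1 and Thbs2 form the trimeric subgroup, carry type 1 repeats that bind the receptor CD36, and are known as inhibitors of blood vessel growth, and Thbs1 can release TGF-beta from its latent complex. Thbs3, Thbs4 and Comp form the pentameric subgroup, which lacks the type 1 repeats and binds collagens, and Thbs4 and Comp are best known from tendon, muscle and cartilage.

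In the deposited annotation on mm39, Thbs1 (ENSMUSG00000040152) is on chromosome 2 from 117942357 to 117957614, on the forward strand. Thbs2 (ENSMUSG00000023885) is on chromosome 17 from 14885762 to 14914497, on the reverse strand. Thbs3 (ENSMUSG00000028047) is on chromosome 3 from 89122487 to 89134144, on the forward strand. Its whole length overlaps Mtx1, a mitochondrial outer membrane gene of the opposite strand. Thbs4 (ENSMUSG00000021702) is on chromosome 13 from 92888098 to 92931326, on the reverse strand. Comp (ENSMUSG00000031849) is on chromosome 8 from 70826208 to 70834716, on the forward strand.

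The 250 bases before the RefSeq start are shown for Thbs4, the member with the largest fitted genotype difference, and for Thbs2 and Thbs3. Thbs1 and Comp had no sequence in the promoter set used. Capitals mark 4 kinds of short motif, searched on both strands: the GC box GGGCGG, the CCAAT box, the TATAAA box and the TATA-like letters CATAAA. The last pattern was added after the Thbs4 sequence had been read.
Thbs4, chr13:92931327-92931576 on the reverse strand: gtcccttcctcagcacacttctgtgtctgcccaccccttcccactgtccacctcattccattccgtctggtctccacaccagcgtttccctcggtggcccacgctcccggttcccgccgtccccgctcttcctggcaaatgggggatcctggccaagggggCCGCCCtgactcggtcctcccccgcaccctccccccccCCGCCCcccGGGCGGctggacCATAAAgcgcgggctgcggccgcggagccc
Thbs2, chr17:14914525-14914774 on the reverse strand: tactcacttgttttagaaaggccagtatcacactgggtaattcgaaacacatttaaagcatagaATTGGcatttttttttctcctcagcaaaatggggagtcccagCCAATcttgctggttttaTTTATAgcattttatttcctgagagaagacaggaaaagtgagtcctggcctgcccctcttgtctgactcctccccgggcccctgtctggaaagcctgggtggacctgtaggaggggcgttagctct
Thbs3, chr3:89122237-89122486 on the forward strand: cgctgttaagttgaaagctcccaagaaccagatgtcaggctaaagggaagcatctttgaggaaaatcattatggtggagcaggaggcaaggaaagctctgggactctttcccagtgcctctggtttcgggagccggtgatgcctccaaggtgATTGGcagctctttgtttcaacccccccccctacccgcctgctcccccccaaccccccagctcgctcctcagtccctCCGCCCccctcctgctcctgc
The sequences come from RefSeq (GRCm38.p6) and were placed on GRCm39 by exact match. Counted back from the start, the Thbs4 window held GC boxes at bases -89 to -84, -51 to -46 and -42 to -37, and CATAAA at -30 to -25. The Thbs3 window held a CCAAT box at -98 to -94 and a GC box at -21 to -16. In the Thbs2 window there were CCAAT boxes at -186 to -182 and -144 to -140, and a TATAAA box at -126 to -121. Of 32851 mouse promoters of this length, 32.7% held a GC box, 33.9% a CCAAT box, 12.4% a TATAAA box and 10.8% CATAAA. The AP-1 motif TGANTCA and the CArG box, present in 6.75% and 1.47% of those promoters, had no match in the 3 windows. None of the motifs overlapped another, and a match is a description of the letters only.

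Each library held between 21384372 and 45831881 counted reads. Levels are given as CPM, read counts scaled to a common library size with TMM factors, and as CPM per kb of gene length where genes are compared with each other. Ednrb, the disrupted gene, was at 33.9 to 67.7 CPM in WT proximal and 7.85 to 36.3 CPM in HSCR proximal libraries, and at 12.2 to 40.2 CPM in WT distal libraries. In the HSCR distal group it was at 97.0, 5.55, 5.83 and 9.57 CPM, so the library labelled HSCR distal 1 lay above every WT library. These are counts of the whole gene, and which parts of it the reads cover was not examined. HSCR proximal 3 and HSCR proximal 4, at 36.3 and 35.8 CPM of Ednrb, also lay above WT proximal 2 at 33.9 CPM. The summed level of 6 colon position genes was 53.4 to 81.9 CPM in WT proximal and 189.9 to 289 CPM in WT distal libraries, and at 217 CPM HSCR proximal 1 lay within the WT distal range. The libraries labelled HSCR distal 1 (123 CPM) and HSCR distal 4 (113 CPM) lay below that range, and the first of them also held 1386 CPM of enteric neuron markers where the rest of its group held 21.8 to 93.7 CPM. The position genes did not all run alike. Hoxd10 was at 11.7 to 32.1 CPM in WT proximal, 9.92 to 15.2 CPM in WT distal, 83.2 CPM in HSCR distal 1 and 44.3 CPM in HSCR distal 4. Hoxd13 was at 0.904 to 23.9 CPM in WT proximal and 112 to 201 CPM in WT distal libraries. It was at 125 CPM in HSCR proximal 1, 0.629 CPM in HSCR distal 1 and 14.1 CPM in HSCR distal 4. HSCR proximal 2 stood apart with 15864 CPM of intestinal epithelium markers and 5933 CPM of smooth muscle markers, which were at 29776 to 107829 CPM in the other 15 libraries. The HSCR proximal segment is described as ganglionic from its distention and Tuj1 staining. In that group HSCR proximal 1 held 87.3 and HSCR proximal 2 held 136 CPM of neuron markers, beside 2969 and 2180 CPM in the other 2 libraries. Whether libraries carry each other's segment or genotype label was not tested. A value of Thbs4 by segment or by genotype holds only as far as these labels do. For Thbs4, Thbs3, Sdc1, Cd36 and Col9a2, fits without some of these libraries are also given.

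Thbs2 and Thbs1 were the most abundant members per unit of gene length, and Comp was close to undetected. Median levels over 16 libraries were 26.1 CPM per kb for Thbs2, 20.5 for Thbs1, 11.3 for Thbs3, 5.64 for Thbs4 and 0.323 for Comp. Thbs2 exceeded Thbs1 per kb in 9 of 16 libraries, and their order did not hold beyond the spread between libraries (25.9 ± 14.9 and 30.3 ± 31.7 CPM per kb, mean ± SD, n = 16). Thbs2 was above Thbs3 in 14 libraries and Thbs1 above Thbs3 in 13. Thbs3 was above Thbs4 in 11 of 16, so these neighbours in the order also crossed. Every other member was above Comp in all 16 libraries. Thbs2 was the highest member in 8 libraries, Thbs1 in 6 and Thbs4 in 2, which were HSCR proximal 2 and HSCR distal 3.

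**Figure D1:**
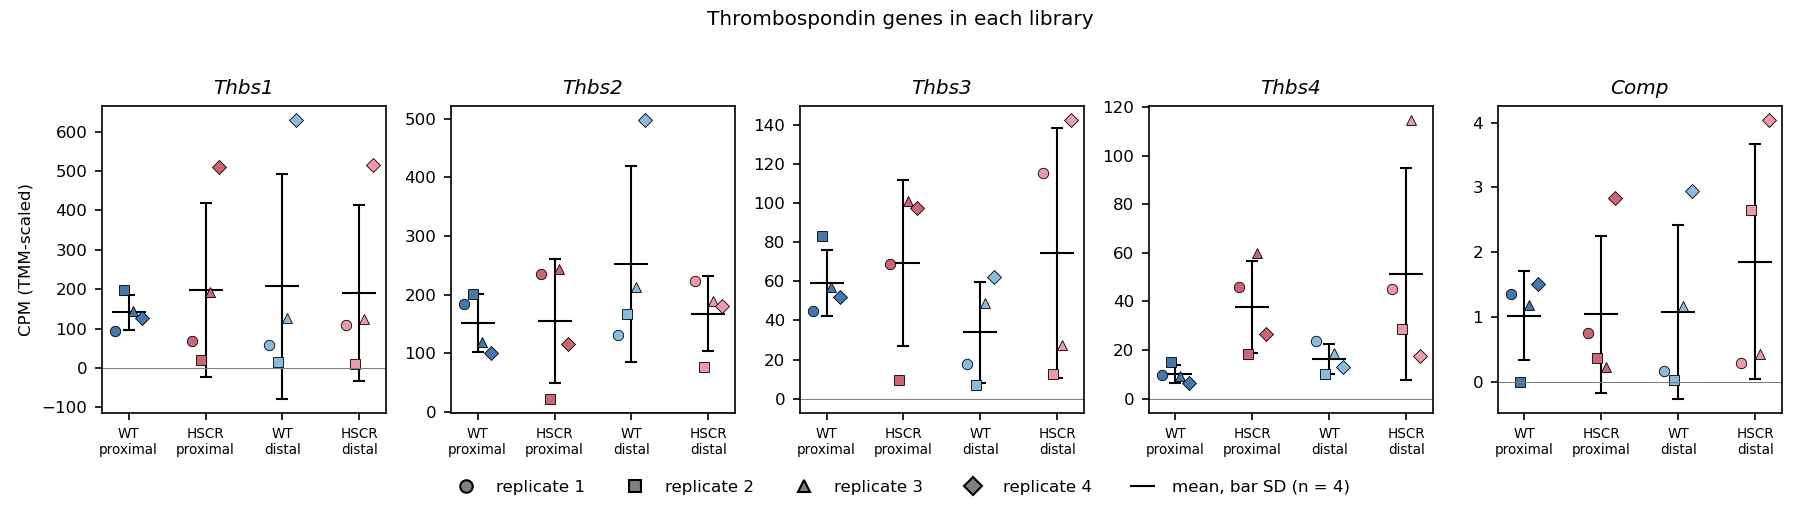
CPM of each of the 5 thrombospondin genes (vertical axes, each with its own scale) in the 4 groups, with 1 marker per library, the horizontal line at the mean and the bar for 1 SD (n = 4). The 4 HSCR proximal libraries lie above all WT proximal libraries for Thbs4, while Thbs1 is above 500 CPM in replicate 4 of 3 groups.

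Thbs4 was the member with the clearest genotype difference. In WT proximal colon it was at 9.79, 15.1, 9.47 and 6.44 CPM in replicates 1 to 4 (10.2 ± 3.60 CPM, mean ± SD, n = 4). In HSCR proximal colon it was at 46.0, 18.5, 60.1 and 26.4 CPM (37.8 ± 18.9 CPM, n = 4). Every HSCR proximal library was above every WT proximal library, and the closest pair was HSCR proximal 2 and WT proximal 2. The ratio of the group means was 3.70, with an exact two-sided permutation p = 0.0286, the smallest that 4 against 4 libraries allow. Adjusted by Benjamini-Hochberg over the 20 exact tests of 5 members in 4 comparisons, p = 0.571. Among 16664 genes tested, 4.86% had groups that did not overlap in either direction and 2.03% were wholly higher in HSCR. The fitted log2 fold change was 1.87 (SE 0.44), with an unadjusted p = 0.00206 and a Benjamini-Hochberg adjusted p = 0.601 in edgeR's quasi-likelihood test, and it ranked 57 by p. At an adjusted p under 0.05 the share of genes called was 0%, and at an unadjusted p under 0.05 it was 6.62%, or 2.48% for higher genes. Thbs4 is one of the genes that the study itself singled out from these libraries, so its direction is not independent evidence. With DESeq2 the same comparison gave an adjusted p = 0.0103 for Thbs4 and 190 genes called. Without HSCR proximal 1, whose position genes lay within the WT distal range, the log2 fold change was 1.76, and without HSCR proximal 2 it was 2.10.

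In the distal colon, the segment that lacks ganglia in this model, Thbs4 was again at higher values in most HSCR libraries, but the groups overlapped. WT distal libraries held 23.9, 10.0, 18.6 and 12.8 CPM (16.3 ± 6.17 CPM, n = 4). HSCR distal libraries held 45.1, 28.7, 114 and 17.4 CPM (51.4 ± 43.6 CPM, n = 4). HSCR distal 4 was below WT distal 1 and WT distal 3, and the other 3 HSCR distal libraries were above all WT distal libraries. The ratio of means was 3.15 with an exact two-sided permutation p = 0.0857, and 1.82% of genes had distal groups that did not overlap. The fitted log2 fold change was 1.61 (SE 0.57), with an unadjusted p = 0.0203 and an adjusted p = 0.9998 in edgeR's quasi-likelihood test. At an unadjusted p under 0.05, 2.64% of 17059 genes were called and 0.879% were called as higher, with 0% at an adjusted p under 0.05. HSCR distal 3 carried much of this difference, which was 0.89 on the log2 scale without it. Without the libraries labelled HSCR distal 1 and HSCR distal 4, whose position genes were below the WT distal range, it was 2.08. The difference between the distal and the proximal genotype effect was -0.23 (SE 0.74, adjusted p = 1 in edgeR's test), an interval wide enough to hold a sizeable difference in either direction.

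Over both segments, Thbs4 ranged from 6.44 to 23.9 CPM in the 8 WT libraries, with a median of 11.4 CPM. The 8 HSCR libraries ranged from 17.4 to 114 CPM, with a median of 36.9 CPM. The ranges met only between 17.4 and 23.9 CPM, where HSCR distal 4 and HSCR proximal 2 lay beside WT distal 1 and WT distal 3. A fit of HSCR against WT over all 16 libraries, added after the values had been seen, gave a log2 fold change of 1.77 (SE 0.37). Its edgeR quasi-likelihood p was 0.000191, the rank was 19 of 18619 genes, and the adjusted p was 0.165. This fit called 10.8% of genes at an unadjusted p under 0.05, 5.33% as higher, and 0% at an adjusted p under 0.05. DESeq2 gave an adjusted p = 0.00132 for Thbs4 in the same design, with 398 genes called. Without the segment as a term, so that the model held only the genotype labels, the log2 fold change was 1.75 (edgeR adjusted p = 0.153). Proximal and distal libraries of the same number may come from the same mouse, which the labels do not say, and the p-value treats them as separate. Between the segments Thbs4 differed by a log2 value of 0.71 (SE 0.39, edgeR adjusted p = 0.906) in WT and 0.41 (SE 0.60, adjusted p = 0.9998) in HSCR mice, distal against proximal. The HSCR value was -0.31 without HSCR distal 3.

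Thbs4 had a larger share of the family in the proximal HSCR colon, by the same counts as above. Its share of the summed CPM per kb of all 5 genes was 5.45%, 5.51%, 5.15% and 4.06% in WT proximal libraries (5.04% ± 0.675, n = 4). In HSCR proximal libraries it was 19.1%, 39.4%, 17.2% and 6.19% (20.5% ± 13.8, n = 4). The largest of these, in HSCR proximal 2, went with the lowest Thbs4 level of its group (18.5 CPM). Thbs1, Thbs2 and Thbs3 were at 19.9, 22.6 and 9.73 CPM in that library, the lowest of its group for each. The groups did not overlap (exact two-sided permutation p = 0.0286, adjusted over 20 tests of shares p = 0.286), although HSCR proximal 4 was close to the WT values. Without HSCR proximal 2 the HSCR mean was 14.2% ± 6.97 (n = 3), and without HSCR proximal 1 it was 20.9% ± 16.9 (n = 3). In the distal colon the shares were 18.5%, 9.86%, 8.39% and 2.03% in WT and 15.6%, 35.3%, 39.5% and 3.60% in HSCR libraries. They overlapped widely (exact permutation p = 0.229), and in both distal groups the lowest share was that of replicate 4, where Thbs1 was highest.

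**Figure D2:**
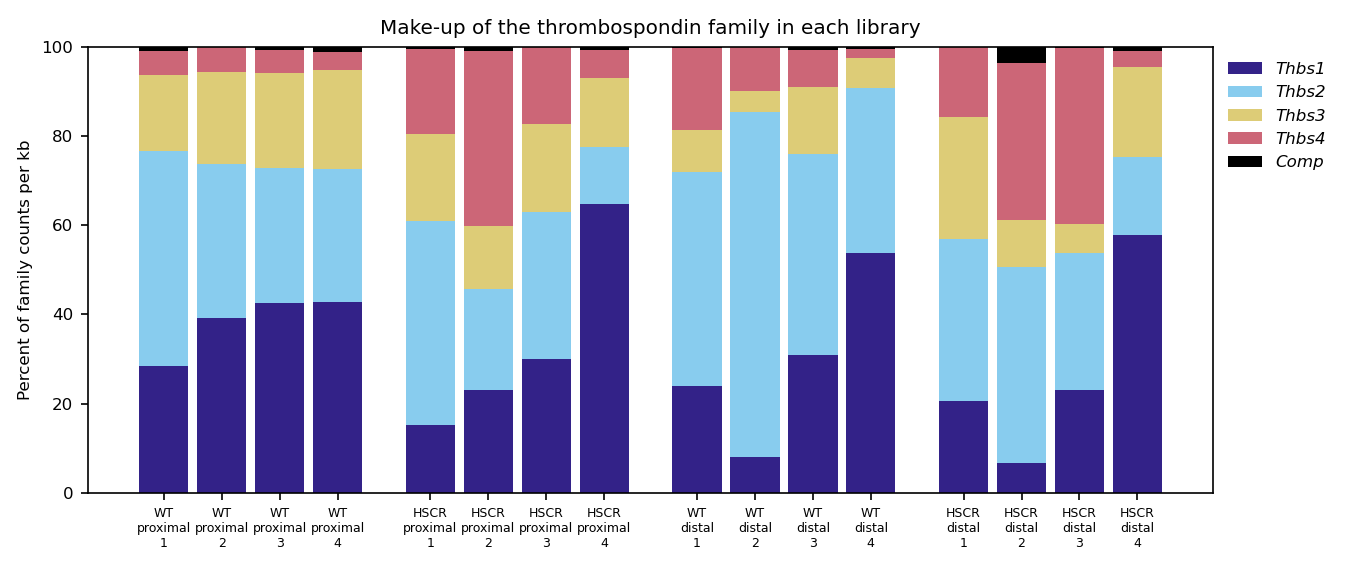
Share of each thrombospondin gene in the summed counts per kb of the family (vertical axis, percent), with 1 stacked bar for each of the 16 libraries. The Thbs4 band is between 4.06% and 5.51% in the 4 WT proximal bars and reaches 39.5% in HSCR distal 3.

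Markers of other cells varied with Thbs4 in part of the libraries. The 12 intestinal epithelium genes, which should be scarce in dissected LMMP, summed to 48.3 to 1910.0 CPM in WT proximal and 212 to 15864 CPM in HSCR proximal libraries. They summed to 140.1 to 2487 CPM in WT distal and 123 to 5682 CPM in HSCR distal libraries, with the highest distal sum in HSCR distal 3, where Thbs4 was also highest. All 12 were counted in every library of 3 groups and 8 of them in every WT proximal library. Level and markers did not always go together: WT proximal 1 had 1910.0 CPM of these markers and 9.79 CPM of Thbs4, and HSCR proximal 4 had 212 CPM of them and 26.4 CPM of Thbs4. HSCR proximal 2 had the highest marker sum of all and the lowest Thbs4 of its group. Tendon markers, 5 genes, summed to 34.6 to 72.8 CPM in WT proximal and 13.0 to 101 CPM in HSCR proximal libraries. In the distal groups they summed to 52.4 to 63.6 CPM in WT and 34.0 to 59.5 CPM in HSCR. Skeletal muscle markers, 8 genes, summed to 36.7 to 226 CPM in WT proximal and 29.5 to 2689 CPM in HSCR proximal libraries, with Myh4 at 0 in all 4 WT proximal libraries. In the distal groups they summed to 120.4 to 1439 CPM in WT, highest in WT distal 1, the WT library with the most Thbs4, and to 113 to 1663 CPM in HSCR. Enteric neuron markers, 13 genes, summed to 655 to 3815 CPM in WT proximal and 87.3 to 2969 CPM in HSCR proximal libraries. They summed to 99.3 to 2521 CPM in WT distal and 21.8 to 1386 CPM in HSCR distal libraries, with Chat at 0 in all 4 of the latter. Mitochondrial genes took 49.8%, 17.8%, 7.31% and 34.6% of the counts in WT proximal libraries and 5.56%, 6.68%, 6.34% and 20.1% in HSCR proximal libraries, and 4.32% to 23.7% in WT distal and 5.93% to 11.3% in HSCR distal libraries. With mitochondrial genes left out the proximal log2 fold change of Thbs4 was 1.89. Their part in the Thbs4 result was not tested.

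**Figure D3:**
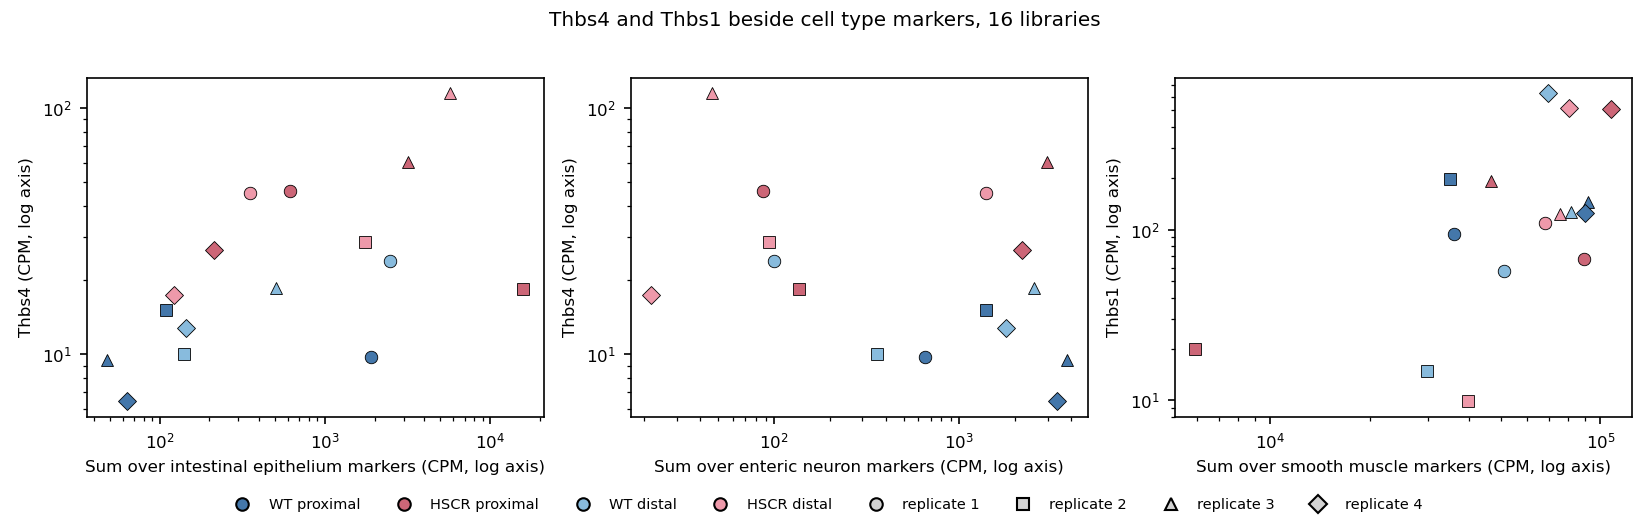
Thbs4 CPM against the summed CPM of epithelium markers (left) and of enteric neuron markers (middle), and Thbs1 CPM against smooth muscle markers (right), all on log axes, with 1 marker per library, coloured by group and shaped by replicate. HSCR distal 3 is highest for Thbs4 at 114 CPM, and the 3 libraries under 20 CPM of Thbs1 are replicate 2 of 3 groups.

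Thbs3, the least studied member, known from bone and heart, showed no genotype difference beyond the spread of libraries. It was at 44.9, 83.4, 57.1 and 51.8 CPM in WT proximal libraries (59.3 ± 16.8 CPM, n = 4). It was at 69.1, 9.73, 101 and 97.6 CPM in HSCR proximal libraries (69.4 ± 42.3 CPM, n = 4). Apart from HSCR proximal 2, which was far below, the HSCR values lay at or above most WT values, and the groups overlapped. In the distal colon it was at 17.7, 7.13, 48.8 and 62.3 CPM in WT (34.0 ± 25.9 CPM, n = 4) and at 115, 12.5, 27.6 and 142 CPM in HSCR libraries (74.4 ± 64.0 CPM, n = 4). The highest 2 were the libraries labelled HSCR distal 1 and HSCR distal 4, both with position genes below the WT distal range, and the other HSCR distal values lay within the WT range. Its log2 fold change, HSCR against WT, was 0.21 (SE 0.60, edgeR adjusted p = 0.957) in the proximal and 1.10 (SE 0.86, adjusted p = 0.9998) in the distal segment. Without HSCR proximal 2 the proximal value was 0.58 (SE 0.27, edgeR adjusted p = 0.680). The distal value was -0.83 without the libraries labelled HSCR distal 1 and HSCR distal 4. Between the segments of WT mice, Thbs3 CPM differed by a log2 value of -0.78 (SE 0.58, edgeR adjusted p = 0.920), distal against proximal, and by 0.07 (SE 0.86) in HSCR mice. As a share of the family per kb, Thbs3 was at 17.0% to 22.3% in WT proximal libraries and 4.79% to 15.0% in WT distal libraries, which did not overlap (exact permutation p = 0.0286, adjusted over 20 tests of shares p = 0.286). Mtx1, which shares the locus, had between 12.3% of the Thbs3 counts and 319% of them in HSCR proximal 2. Whether the counting used strand is not given in the sources used here, so reads of the 2 genes may be mixed where Thbs3 is low.

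Comp, a cartilage and tendon protein that assembles collagen fibrils, was barely above the limit of counting. It was at 1.36, 0, 1.19 and 1.51 CPM in WT proximal and 0.750, 0.366, 0.221 and 2.83 CPM in HSCR proximal libraries. It was at 0.167, 0.0288, 1.17 and 2.93 CPM in WT distal and 0.286, 2.65, 0.432 and 4.03 CPM in HSCR distal libraries. The count of 0 in WT proximal 2 allows a level of up to 0.111 CPM (3 counts, for counting error only). The values stand for 0 to 175 reads per library, the groups overlapped in each segment, and 3 of the 4 highest libraries were replicate 4. The log2 fold change, HSCR against WT, was 0.02 (SE 1.28, edgeR adjusted p = 0.997) in the proximal and 0.75 (SE 1.31, adjusted p = 0.9998) in the distal segment. With errors of this size a difference of severalfold was not detectable.

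Thbs1, the activator of latent TGF-beta, varied more between libraries of 1 group than between groups. In WT proximal colon it was at 94.3, 199, 144 and 126 CPM (141 ± 43.9 CPM, n = 4). In HSCR proximal colon it was at 67.6, 19.9, 193 and 510.0 CPM (198 ± 221 CPM, n = 4). HSCR proximal 1 and HSCR proximal 2 lay below the narrow WT range, HSCR proximal 3 within it and HSCR proximal 4 above it. The libraries were split into 2 library name series, replicates 1 and 2 and replicates 3 and 4. In the second series the names began with CM for WT proximal 3, WT proximal 4 and HSCR proximal 4. They began with LC for HSCR proximal 3 and for replicates 3 and 4 of both distal groups. The second series therefore mixes names, unevenly between the proximal genotypes, and the labels do not give their meaning. The proximal difference in mean log2 CPM (0.5 added) was -1.88 in the first and 1.22 in the second series. Within each series, with 2 libraries per group, the groups did not overlap in CPM with TMM factors. Without TMM factors they overlapped in the first series, with HSCR proximal 1 at 69.0 CPM and WT proximal 1 at 58.5 CPM. The share of all genes without overlap within a series was not counted. WT distal libraries held 57.1, 14.9, 127 and 629 CPM (207 ± 285 CPM, n = 4), and HSCR distal libraries 109.5, 9.84, 123 and 517 CPM (189.9 ± 224 CPM, n = 4). The same replicate numbers were low and high in 3 groups: replicate 2 was under 20 CPM and replicate 4 above 500 CPM in HSCR proximal, WT distal and HSCR distal, and the WT proximal group did not share this. The 3 low libraries held 1.68, 26.7 and 6.49 CPM of 6 mesothelium markers and the 3 high ones 135, 165 and 177 CPM. Endothelium markers were at 81.9, 123 and 102 CPM in the low libraries and at 489, 265 and 487 CPM in the high ones. Smooth muscle markers were at 5933, 29776 and 39671 CPM in the low and 107829, 69205 and 80207 CPM in the high libraries. Immediate early genes and markers of interstitial cells of Cajal were also lower in every low library than in any high one. Macrophage and red blood cell markers ran the other way, and the other marker lists overlapped. Other libraries did not keep the order of the mesothelium markers, with 244 CPM, the highest sum, and 109.5 CPM of Thbs1 in the library labelled HSCR distal 1. WT distal 1 held 5.98 CPM of mesothelium markers and 57.1 CPM of Thbs1. The part of the tissue makeup in the Thbs1 level was not tested. The log2 fold change, HSCR against WT, was 0.48 (SE 0.81, edgeR adjusted p = 0.914) in the proximal and -0.16 (SE 1.22, adjusted p = 0.9998) in the distal segment. Its sign depended on which library was included, with a range of -0.61 to 0.86 in the proximal and -1.40 to 1.47 in the distal colon when each was left out in turn. Distal against proximal, the log2 value was 0.57 (SE 0.89) in WT and -0.12 (SE 1.15) in HSCR mice.

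Thbs2, the other trimeric member and a regulator of collagen fibril shape, was the only abundant member without a library under 20 CPM, and showed no genotype difference beyond the spread of libraries. It was at 184, 201, 119 and 100.4 CPM in WT proximal libraries (151 ± 49.2 CPM, n = 4). In HSCR proximal libraries it was at 235, 22.6, 244 and 117 CPM (155 ± 105 CPM, n = 4). Again HSCR proximal 2 was far below the rest, 2 HSCR libraries were above all WT libraries, and the groups overlapped. WT distal libraries held 131, 167, 213 and 497 CPM (252 ± 167 CPM, n = 4), and HSCR distal libraries 223, 76.2, 189.8 and 181 CPM (168 ± 63.6 CPM, n = 4). WT distal 4 was the highest of all 16 libraries, and the remaining distal values of both genotypes overlapped. The log2 fold change, HSCR against WT, was 0.02 (SE 0.62, edgeR adjusted p = 0.997) in the proximal and -0.62 (SE 0.49, adjusted p = 0.9998) in the distal segment. Distal against proximal, it was 0.76 (SE 0.44, edgeR adjusted p = 0.917) in WT and 0.09 (SE 0.66) in HSCR mice. As a share of the family, Thbs2 was at 36.9% to 77.4% in WT distal and 17.6% to 44.1% in HSCR distal libraries (exact permutation p = 0.0571, adjusted over 20 tests of shares p = 0.381).

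At an adjusted p under 0.05, 0 of 5 members were called by edgeR in the proximal colon, in the distal colon, between the segments in HSCR mice and in the interaction, where 0% of all genes were called. Between the segments in WT mice 0 of 5 members were called, beside 0.0181% of all genes. At an unadjusted p under 0.05, 1 of 5 members, Thbs4, was called in each genotype comparison, and 0 of 5 between the segments, where 5.23% of genes in WT and 1.49% in HSCR mice were called, or in the interaction, where 1.44% were. Between the segments the CPM of 0 of 5 members was without overlap, beside 4.36% of genes in WT and 1.32% in HSCR mice. For the other 4 members the genotype effect did not differ detectably between the segments, with interaction p-values between 0.425 and 0.706 in edgeR and standard errors of 0.83 to 1.93 on the log2 scale.

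**Figure D4:**
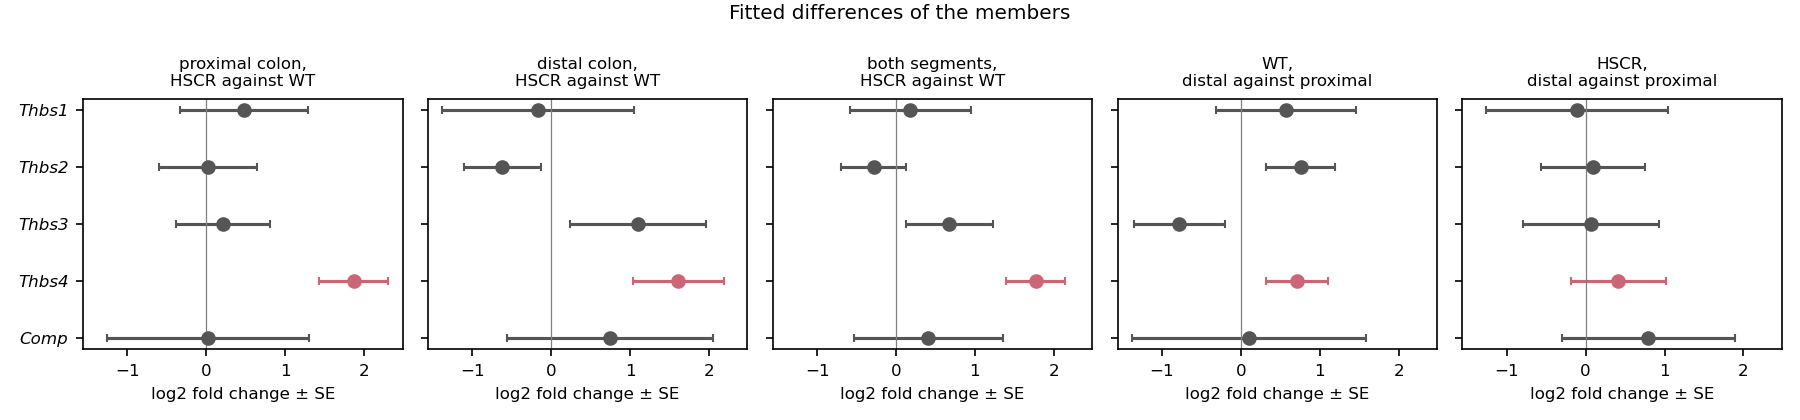
Fitted log2 fold change of each member (horizontal axis, with bars of 1 SE) in 5 comparisons, with Thbs4 in red. Thbs4 is at 1.87 in the proximal and 1.61 in the distal genotype comparison, and the bars of the other members mostly span 0.

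Over the 16 libraries, Thbs1 and Thbs3 varied most alike among the members (Pearson r = 0.85 of log2 CPM). Thbs1 and Thbs2 had r = 0.57 and Thbs2 and Thbs3 r = 0.55. Thbs4 had r between -0.08 and 0.15 with each other member. Within the groups, after the group means were taken out, it had r = 0.45 with Thbs2 and r = -0.42 with Comp. These points share libraries, groups and tissue makeup, and the values are descriptions. Of 18619 genes, those closest to Thbs1 were Postn, another matricellular protein (r = 0.92), Rgs1, a brake on G protein signalling (r = 0.91), and Tmprss9 (r = 0.91). Closest to Thbs2 were Matn2, a matrilin of the matrix (r = 0.90), Ccdc88a (r = 0.90) and Nin, a centrosome protein (r = 0.89). Closest to Thbs3 were Fjx1 (r = 0.95), Tram2, which takes part in collagen synthesis (r = 0.94), and P4ha2, a collagen prolyl hydroxylase (r = 0.93). Among those closest to Thbs4 were Tnfrsf8 (r = 0.79) and Chad (r = 0.77). Both were at or near 0 CPM in all 4 WT proximal libraries, so these values rest on few reads. Closest to Comp were Oas1b, Atad3aos and Klc3 (r = 0.84, 0.84 and 0.84), of which Klc3 reached 7.27 CPM in HSCR proximal 4.

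Genes that work with thrombospondins were taken as 5 lists of 68 genes in all: receptors, TGF-beta ligands with their latency proteins, proteases that cleave thrombospondins, matrix partners, and other proteins with type 1 repeats. None passed an adjusted p of 0.05 in any comparison (0 genes in edgeR's test). At an unadjusted p under 0.05, 1 of 61 tested genes was higher and 2 were lower in HSCR proximal colon, where 6.62% of all genes were called. In HSCR distal colon 2 of 60 were higher and 2 lower, where 2.64% of all genes were called.

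Of the 14 receptors, 7 were above 0 on the log2 scale in the proximal and 13 in the distal segment, with median log2 fold changes of 0.03 and 0.35 beside medians of 0.04 over all genes, of which 53.2% and 53.9% were above 0. Sdc1, a cell surface proteoglycan abundant on epithelium, had log2 fold changes of 2.02 (SE 0.52, edgeR adjusted p = 0.649) and 1.27 (SE 0.54, adjusted p = 0.9998). In the proximal colon it was at 39.6, 23.5, 18.4 and 13.6 CPM in WT and 60.2, 206, 80.7 and 46.6 CPM in HSCR libraries. The groups did not overlap, as for 4.86% of 16664 genes in either direction and 2.03% wholly higher in HSCR. Its highest level was in HSCR proximal 2, the library with the most epithelium markers, without which the proximal value was 1.39. In the distal colon it was 1.04 without the library labelled HSCR distal 1 and 1.45 without HSCR distal 4. The markers' part in the Sdc1 result was not tested. Cd36, the scavenger receptor for type 1 repeats, was at -0.53 (SE 0.56) in the proximal and 1.49 (SE 0.64, edgeR adjusted p = 0.9998) in the distal segment. The proximal value was -0.69 without HSCR proximal 1 and -0.25 without HSCR proximal 2. In HSCR distal libraries Cd36 was at 32.9, 43.9, 37.2 and 181 CPM and in WT distal at 13.9, 30.1, 15.5 and 44.4 CPM. Without the library labelled HSCR distal 1 the distal log2 fold change was 1.73, and without HSCR distal 4 it was 0.53. Adipocyte markers were at 316 CPM in that library and 40.9 to 230.1 CPM in the rest of its group, and their part was not tested.

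Of the 10 TGF-beta genes, 6 were above 0 in the proximal and 5 in the distal segment, with medians of 0.13 and 0.07 on the log2 scale. Itgb8, an integrin subunit that releases TGF-beta, was at -1.51 (SE 0.63, edgeR adjusted p = 0.747) in the proximal and -0.39 (SE 0.49) in the distal segment. Tgfb2, the ligand, was at -1.22 (SE 0.60) and -0.65 (SE 0.46). Of the 6 proteases, 5 and 4 were above 0, with medians of 0.52 and 0.08. Mmp2, a gelatinase, was at 0.86 (SE 0.58) and Adamts12 at 0.85 (SE 0.60) in the proximal colon, and Mmp9 at -1.05 (SE 0.84) in the distal colon, and none of these passed an unadjusted p of 0.05.

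Of 16 matrix partners, 11 were tested in each segment, and 8 and 7 of them were above 0, with medians of 0.40 and 0.16. Col9a2, a chain of the fibril-associated collagen IX, stood furthest from 0 in this list. In the proximal colon it was at 57.9, 62.0, 113 and 96.1 CPM in WT and 11.5, 7.39, 13.0 and 11.5 CPM in HSCR libraries, a log2 fold change of -2.95 (SE 0.34, edgeR adjusted p = 0.101). The groups were far apart, and the HSCR values were close to each other. Groups without overlap were found for 4.86% of 16664 genes in either direction. Without HSCR proximal 1 the log2 fold change was -2.97, and without HSCR proximal 2 it was -2.80. In the distal colon it was at 7.11, 30.4, 81.4 and 59.4 CPM in WT and 22.8, 0.969, 0.971 and 3.30 CPM in HSCR libraries (-2.69, SE 1.15, adjusted p = 0.9998), with overlap between the libraries labelled HSCR distal 1 and WT distal 1. Without the library labelled HSCR distal 1 the value was -4.71, and without HSCR distal 4 it was -2.46. Neuron markers were at 1386 CPM in the library labelled HSCR distal 1, and at 99.3 CPM in WT distal 1 and 361 CPM in WT distal 2, beside 2521 and 1788 CPM in the other WT distal libraries. In HSCR proximal libraries they ran from 87.3 to 2969 CPM while Col9a2 stayed between 7.39 and 13.0 CPM. The part of neurons in the Col9a2 result was not tested. Sdc1 and Col9a2 are also among the genes the study picked from these libraries. Col1a1, a main fibrillar collagen chain, was at 0.84 (SE 0.64) in the proximal and 0.22 (SE 0.54) in the distal segment.

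Of 22 other proteins with type 1 repeats, 20 were tested in the proximal and 19 in the distal segment, with 8 and 9 above 0 and medians of -0.11 and -0.05. Spon1, a matrix protein of the nervous system, was at -1.45 (SE 0.61, edgeR adjusted p = 0.9998) in the distal and -1.01 (SE 0.73) in the proximal colon. Ccn3 and Ccn1, matricellular proteins of the CCN family, were at 0.86 (SE 0.46) and 1.41 (SE 0.77) in the proximal colon, and Spon2 at -0.92 (SE 0.51) in the distal colon. None of these 3 passed an unadjusted p of 0.05.

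**Figure D5:**
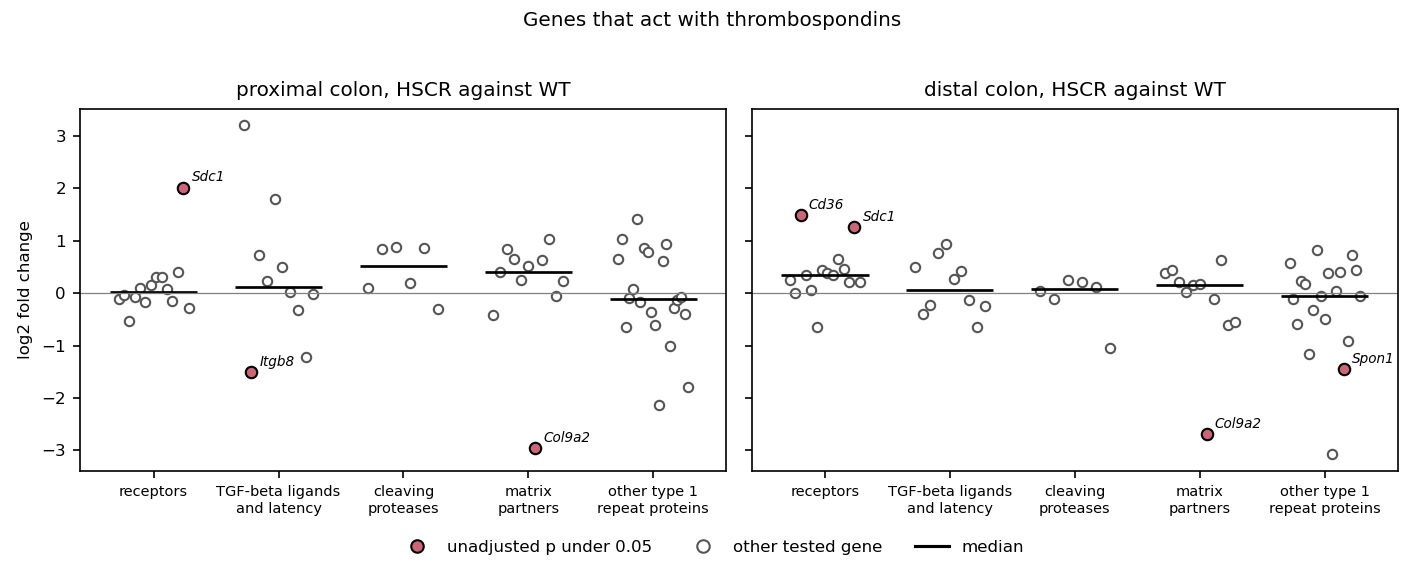
Log2 fold change, HSCR against WT (vertical axis), of each tested gene of the 5 lists in the proximal (left) and distal (right) colon, with the median of each list as a line and genes at an unadjusted p under 0.05 filled and named. Sdc1 is above 0 and Col9a2 below 0 in both segments, and the medians lie between -0.11 and 0.52.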

How the data were processed

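The authors aligned poly-A RNA-seq reads of LMMP with HISAT2 2.2.1 to mm39, and gene counts were made with featureCounts 2.0.6 and a GENCODE annotation, and the deposited counts are whole numbers without normalization. The deposited FPKM values are the same counts per kb times 1 constant per library (largest relative departure 1.4e-13) and served only as this check. The authors' own fold changes and p-values, also in the table, were not used. The labels allow strand-specific and non-strand-specific kits. The tissue entry of the 8 distal libraries says proximal, and they were grouped by their titles. Nothing in the labels ties libraries to mice, so p-values measure the spread between libraries.

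Genes that passed filterByExpr entered edgeR's quasi-likelihood test, scaled by TMM, within the 8 libraries of each comparison, and the interaction over all 16, with Benjamini-Hochberg adjustment over all genes tested. SE is the log2 fold change divided by the square root of F. Exact permutation tests, two-sided, compared CPM and family shares. RUVr followed the methods with 4 factors. Likeness was Pearson's r of edgeR's log2 CPM with a prior count of 0.5 reads, scaled to library size. The members and lists were chosen with earlier results of these data known. Named genes were the 5 members, list genes past an adjusted p of 0.05 (none) or the 2 per list and segment with the smallest p, and the 3 most alike to each member, of which 1 is not reported here. Counts ranged from 21384372 to 45831881 per library, with 4.32% to 49.8% mitochondrial. The common biological coefficient of variation was 0.700 to 0.794. The scripts were tested on simulated data. The fits ran in edgeR 4.0.16 and DESeq2 1.42.0 (limma 3.58.1, R 4.3.3), and levels, exact tests and plots in scipy 1.17.1, numpy 2.4.6, matplotlib 3.10.9 and pandas 2.3.3 (Python 3.11.15).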

Additional observations from a re-analysis of the deposited data

How the results depend on the processing

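Of 6 genotype or segment comparisons, the number of genes called at an adjusted p under 0.05 moved most with the test and the unwanted factors. DESeq2 called 190 genes in the proximal and 22 in the distal genotype comparison, 49 between the segments in WT and 5 in HSCR mice, 6 in the interaction and 398 over both segments. The likelihood ratio test called 69, 7 and 32 genes in the first 3 of these and 3 in the interaction, and RUVr with 4 factors, run with the same likelihood ratio test, called 3561, 1570, 3216 and 566 in the first 4. With the library name series as a term, 4 genes were called in the proximal comparison and 2 over both segments. This term set replicates 1 and 2 against replicates 3 and 4, and the latter hold both LC and CM names. The 1 fit of all 16 libraries called 0 between the segments in WT. Of the members, Thbs4 was the 1 called by DESeq2 in the proximal colon and over both segments, and the 1 called by RUVr with the likelihood ratio test in the proximal (adjusted p = 2.57e-06) and distal colon (adjusted p = 0.0277). The likelihood ratio test alone gave it adjusted p-values of 0.0523 and 0.953 in edgeR. Between the segments in WT, RUVr with that test called 2 of 5 members, Thbs2 (0.61) and Thbs3 (-1.14), beside 3216 of 16566 genes. RUVr called 3561 of 16664 genes in the proximal and 1570 of 17059 in the distal colon, so its calls of members stand among many. Its 4 factors were taken from the residuals of the same 8 libraries. The cause of these differences between tests was not tested.

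Same-numbered libraries were not taken as pairs, since not every correlation of their deviations was over 0.1. That does not show that they are unpaired. Between the genotypes the correlations ranged from -0.117 to 0.251 in the proximal and from -0.214 to 0.424 in the distal colon. Between the segments they were all above 0, 0.0959 to 0.417 for WT mice, 0.000134 to 0.358 for HSCR mice, and the library names of replicates 1 and 2 share a number across all 4 groups, whose meaning the labels do not give. With the replicate block, 1 gene was called between the segments in WT, Thbs4 was at 1.81 in the proximal and 1.35 in the distal segment, and several members that missed the threshold changed sign. Under the block Thbs1 was at -0.25 in the proximal colon, -0.49 between the segments in WT and 1.13 in the interaction, Thbs2 at -0.25 and Thbs3 at -0.018 in the proximal colon, Comp at -0.13 between the segments in WT, and Thbs3 at -0.014 between those in HSCR mice.

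Other changes of sign were also in members that missed the threshold. With the library name series, Thbs1 was at -0.20 in the proximal colon, 0.23 in the distal colon, -0.24 between the segments in WT, 0.13 in HSCR, 0.72 in the interaction and -0.20 over both segments, and Comp was at -0.046 in the proximal colon and -0.92 between the segments in WT. With RUVr, Thbs1 was at -0.24, Thbs2 at -0.30 and Thbs3 at -0.12 in the proximal colon, Thbs1 at -0.43 and Comp at -0.21 between the segments in WT, and Thbs3 at -0.070 between those in HSCR. Thbs3 was at -0.24 there without replicate 1 of both segments and at -0.83 in the distal genotype comparison without HSCR distal 1 and 4. Without TMM factors, the Thbs1 CPM of HSCR distal minus proximal was 11.4.

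Leaving out each library in turn, 0 to 2 genes were called between the segments in WT and 0 to 11 over both segments, the latter without WT distal 1. In the proximal colon, Thbs1 ranged from -0.61 to 0.86, Thbs2 from -0.28 to 0.38, Thbs3 from -0.014 to 0.58, Thbs4 from 1.56 to 2.12 and Comp from -1.22 to 0.38. In the distal colon, Thbs1 ranged from -1.40 to 1.47 and Thbs4 from 0.89 to 1.90. Between the segments in WT, Thbs1 ranged from -1.05 to 0.96 and Comp from -1.11 to 0.50. In HSCR, Thbs1 ranged from -1.35 to 0.97, Thbs2 from -0.28 to 0.42, Thbs3 from -0.45 to 0.44 and Thbs4 from -0.31 to 0.77. In the interaction, Thbs1 ranged from -1.85 to 0.95 and Thbs4 from -1.05 to 0.051. Over both segments, Thbs1 ranged from -0.33 to 0.97, Thbs2 from -0.43 to 0.027, Comp from -0.083 to 0.93 and Thbs4 from 1.46 to 1.92. The genotype effect of Thbs4 had the same sign in both segments under every alternative tried.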
